A study of Mus musculus with 35 samples.

Results

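Prostaglandin E2 (PGE2) receptor and prostaglandin synthesis transcripts were described in microglia sorted from 3 brain regions of the same mice. The set held 7 genes chosen by symbol: the receptors Ptger3 (EP3), Ptger4 (EP4) and Ptger2 (EP2), and the enzymes Ptgs1 (COX-1), Ptgs2 (COX-2), Hpgds and Tbxas1. Of these 7, 6 were rows of the count table, which listed 21236 genes, and Ptger2 is not analysed here. The set was put together with the regional levels of these genes in view, so their differences between regions are given as a description and were not tested.

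Every group was taken from adult tamoxifen-treated animals that carried Tmem119-2A-CreERT2/ Ai14(RCL-tdTomato)-D, and tdTomato-positive cells were collected by fluorescence-activated sorting. There, CreERT2 is expressed from the microglial gene Tmem119, so the sort took cells in which that gene had been active, and no group lacked the transgenes or tamoxifen. The midbrain (n = 12), striatum (n = 12) and prefrontal cortex (PFC, n = 11) were taken from 12 mice, 6 male and 6 female, and the male PFC group held 5 samples. Total counts ran from 37680501 to 54131421 per sample, and 3 counts were worth 0.0554 to 0.0796 CPM (read counts per gene scaled to the normalised library size).

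Prostanoid synthesis starts when phospholipases or endocannabinoid hydrolases free arachidonic acid from membrane lipids. The cyclooxygenases COX-1 and COX-2 turn it into PGH2, from which terminal synthases make PGE2, PGD2, prostacyclin, PGF2alpha or thromboxane. PGE2 signals through EP1 to EP4, of which EP3 couples mainly to Gi and lowers cAMP, EP2 and EP4 couple to Gs and raise cAMP, and EP1 acts mainly through Gq and calcium. Microglia are known as a major source of COX-1 in the brain and respond to PGE2 through several of these receptors.

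The sorted cells carried the defining microglial transcripts. Mean Tmem119 was 3112, 3334 and 3363 CPM in midbrain, striatum and PFC, and the sum over 10 microglia markers was 41720 to 48230 CPM in midbrain, 45090 to 53430 in striatum and 43180 to 51960 in PFC. Markers of other brain cells were far lower, with sums over 10 neuron markers of 3.42 to 28.3 CPM across the 35 samples. Of the 8 astrocyte and 8 oligodendrocyte markers, no list was at 0 in any region, with median sums of 236, 347 and 339 CPM and 407, 452 and 293 CPM in midbrain, striatum and PFC. One striatum sample, from mouse 3, has a column name that gives the PFC and a label that gives the striatum, and it was placed by its label. Without it, the log2 fold changes of striatum over midbrain and over PFC were 1.502 and -1.11 for Ptger3, -1.53 and -0.08 for Ptger4, -1.07 and -0.20 for Ptgs2, 0.06 and 0.09 for Ptgs1, 0.07 and -0.13 for Hpgds, and -0.07 and -0.02 for Tbxas1.

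The upstream sequences of Ptger3 and Ptger4 are shown because their transcripts differed between regions in opposite directions. Each is the 250 bases before the RefSeq gene start in GRCm38.p6, written 5′ to 3′ on the strand of the gene. The Ptger3 window lay on the plus strand at chr3:157566626-157566875 and the Ptger4 window on the minus strand at chr15:5244188-5244437. Capitals mark GC boxes (GGGCGG, the Sp1 core, found on either strand) and the CCAAT box.
Ptger3: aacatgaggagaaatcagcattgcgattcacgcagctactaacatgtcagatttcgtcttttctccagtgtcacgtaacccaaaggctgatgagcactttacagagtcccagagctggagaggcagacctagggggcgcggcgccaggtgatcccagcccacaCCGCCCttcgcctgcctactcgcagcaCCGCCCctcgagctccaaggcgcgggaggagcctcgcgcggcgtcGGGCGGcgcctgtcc
Ptger4: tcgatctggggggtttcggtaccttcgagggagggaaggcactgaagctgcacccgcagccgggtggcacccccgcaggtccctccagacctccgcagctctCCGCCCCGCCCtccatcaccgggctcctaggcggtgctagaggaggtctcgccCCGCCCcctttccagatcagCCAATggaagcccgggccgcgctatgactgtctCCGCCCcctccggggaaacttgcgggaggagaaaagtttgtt
The Ptger3 window held 3 GC boxes and no CCAAT box. In the Ptger4 window there were 4 GC boxes, a pair of them sharing 1 base, and 1 CCAAT box. A GC box was present in 32.7% of 32851 RefSeq windows of this length and a CCAAT box in 33.8%, and neither receptor window held TATAAA (12.4% of windows), the cAMP response element TGACGTCA (1.55%), the AP-1 site TGANTCA (6.75%) or the PU.1 core GAGGAA (23.3%). All motifs were searched on both strands and chosen after the sequences had been read, and a match is not evidence of binding.

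Ptger3, which encodes the Gi-coupled receptor EP3, was lowest in midbrain, intermediate in striatum and highest in PFC. The gene lies on the plus strand of chromosome 3 (GRCm38, 157566892 to 157645888), with 5688 exon bases over 4 exon blocks and 2 coding transcripts, which a count per gene does not separate. In midbrain the 12 samples ran from 1.65 CPM through a median of 4.98 to 8.10 CPM. In striatum they ran from 5.12 through 13.04 to 19.8 CPM, and in PFC the 11 samples ran from 17.8 through 28.8 to 38.8 CPM. Every PFC sample lay above every midbrain sample. The striatum range overlapped the lower end of the PFC range and the upper end of the midbrain range.

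**Figure D1:**
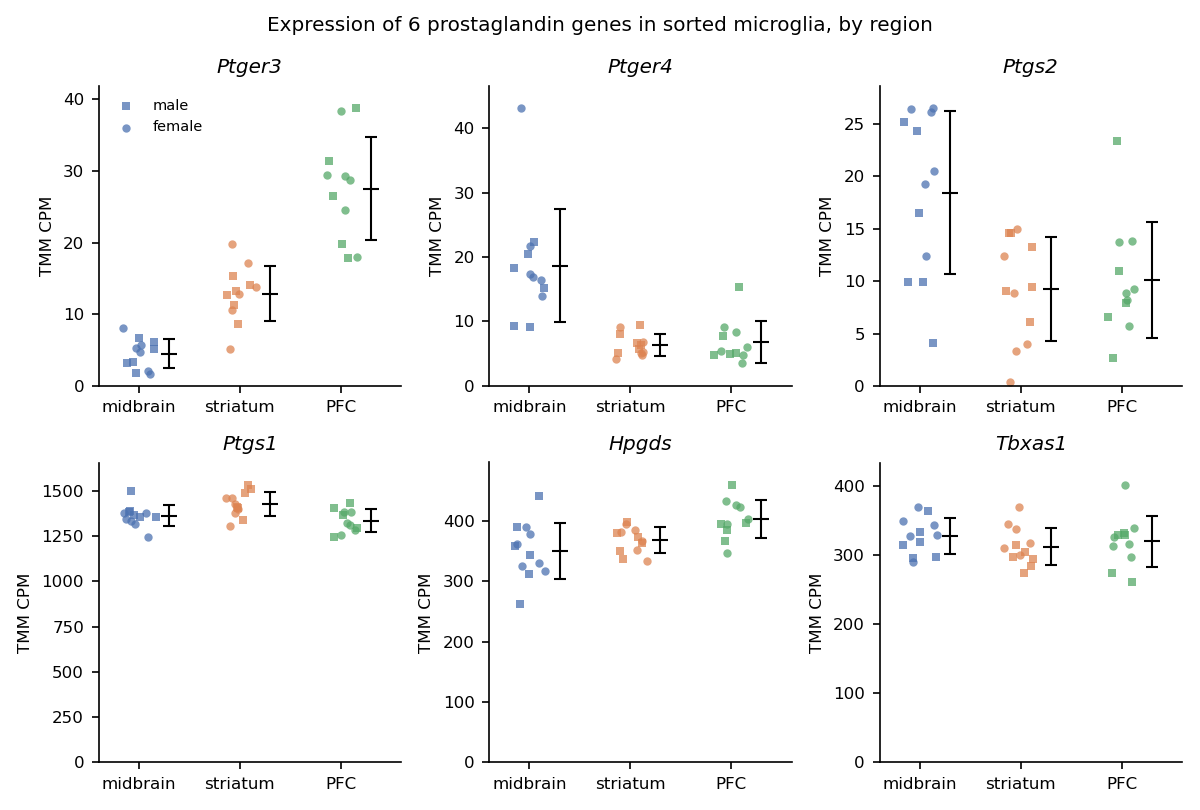
TMM-normalised CPM (y axis, from 0) of 6 prostaglandin genes in each of 35 microglia samples by region (x axis), with squares for male and circles for female mice and black bars for the mean ± SD. Ptger3 averaged 4.50 CPM in midbrain and 27.5 CPM in PFC, Ptger4 and Ptgs2 were highest in midbrain, and Ptgs1, Hpgds and Tbxas1 lay in overlapping ranges.

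Mean Ptger3 was 4.50 ± 2.06 CPM in midbrain (SD, n = 12), 12.9 ± 3.802 CPM in striatum (SD, n = 12) and 27.5 ± 7.23 CPM in PFC (SD, n = 11). The PFC mean was 6.12 times the midbrain mean and 2.14 times the striatum mean, and the striatum mean was 2.86 times the midbrain mean. Fitted log2 fold changes were 2.61 ± 0.23 for PFC over midbrain, 1.52 ± 0.22 for striatum over midbrain and -1.09 ± 0.21 for striatum over PFC (each ± SE). The order held in each animal: Ptger3 was higher in PFC than in midbrain in 11 of 11 mice, higher in striatum than in midbrain in 12 of 12, and higher in PFC than in striatum in 11 of 11. Groups of CPM that do not overlap between PFC and midbrain occurred in 0.476% of all genes, in either direction. These values chose the gene and nothing is read from that share.

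The between-mouse spread of Ptger3 was wide within each region. The coefficient of variation was 45.8% in midbrain, 29.5% in striatum and 26.3% in PFC. Mouse 2 had the lowest value in midbrain, with 75 counts (1.65 CPM), and in striatum, with 213 counts (5.12 CPM), and its PFC value of 17.9 CPM was close to the lowest of that region, 17.8 CPM in mouse 5. Mouse 8 had the highest value in midbrain (8.10 CPM) and striatum (19.8 CPM) but not in PFC (24.6 CPM), where mouse 1 was highest (38.8 CPM).

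Ptger4, which encodes the Gs-coupled receptor EP4, had the opposite order between midbrain and the other regions. The gene lies on the minus strand of chromosome 15 (GRCm38, 5206661 to 5244187), with 6648 exon bases. Midbrain samples ran from 9.10 through a median of 17.1 to 43.1 CPM. Those of the striatum ran from 4.11 through 6.05 to 9.42 CPM and those of the PFC from 3.53 through 5.49 to 15.3 CPM. The midbrain samples of mice 5 and 9, at 9.10 and 9.35 CPM, lay within the upper end of the striatum range. The PFC sample of mouse 11, at 15.3 CPM, lay above 4 midbrain samples, and the other PFC samples reached 9.18 CPM.

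Mean Ptger4 was 18.7 ± 8.77 CPM in midbrain (SD, n = 12), 6.37 ± 1.73 CPM in striatum (SD, n = 12) and 6.85 ± 3.30 CPM in PFC (SD, n = 11). The midbrain mean was 2.94 times that of the striatum and 2.73 times that of the PFC. Fitted log2 fold changes were -1.45 ± 0.22 for PFC over midbrain and -1.55 ± 0.22 for striatum over midbrain, while striatum over PFC was -0.11 ± 0.22 (each ± SE), within 1 SE of 0. Ptger4 was lower in PFC than in midbrain in 11 of 11 mice and lower in striatum than in midbrain in 11 of 12, the exception being mouse 9 with 9.42 CPM in striatum and 9.35 CPM in midbrain. Between striatum and PFC it was higher in striatum in 5 of 11 mice.

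One midbrain sample, from mouse 6, held 43.1 CPM of Ptger4, against 9.10 to 22.4 CPM in the other midbrain samples. The same sample had the highest sum over 7 border macrophage markers of its region, 215 CPM, where the midbrain median was 96.4 CPM, and the part of those cells in its Ptger4 value was not tested. Without mouse 6 the log2 fold change was -1.24 for PFC over midbrain and -1.34 for striatum over midbrain. On the opposite strand, 82 exon bases of Ptger4 overlap those of Ttc33, and 1015 those of the predicted gene Gm15937. Whether counting used strand is not given in the sources used here.

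The ratio of Ptger3 to Ptger4 was lower in midbrain than in striatum and PFC. Library scaling cancels from the ratio of Ptger3 to Ptger4 because both counts come from the same sample. Each count was divided by the exon length of its gene, with the exons of all annotated transcripts merged. The transcripts expressed here may be shorter, so where the ratio crosses 1 depends on these lengths. The order of the samples by this ratio does not. This ratio per kb was below 1 in all 12 midbrain samples, from 0.0973 through a median of 0.330 to 0.577. It was above 1 in all 12 striatum samples, from 1.19 through 2.27 to 4.89, and in all 11 PFC samples, from 2.40 through 4.88 to 9.54. The mean log2 ratio was -1.88 ± 0.85 in midbrain, 1.22 ± 0.68 in striatum and 2.31 ± 0.64 in PFC (each ± SD). Both genes entered the set for their regional levels, so the ratio carries no test.

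**Figure D2:**
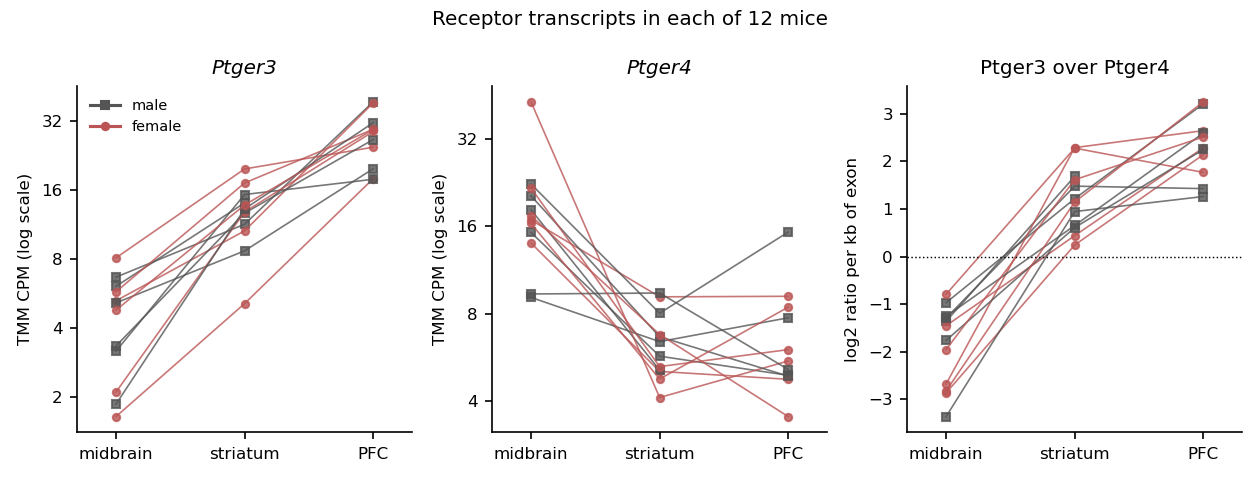
Ptger3 and Ptger4 in TMM-normalised CPM (left and middle, log scales) and the log2 ratio of Ptger3 to Ptger4 per kb of exon (right), by region, with 1 line per mouse for 12 mice (squares male, circles female; mouse 3 has no PFC sample). All 12 midbrain ratios lie under the dotted line (a ratio of 1 with these exon lengths) and all striatum and PFC ratios lie above it.

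Ptgs1, which encodes the constitutive cyclooxygenase COX-1, was the most abundant member and the most even. It lies on the plus strand of chromosome 2 (GRCm38, 36230426 to 36252272). Midbrain samples ran from 1246 through a median of 1362 to 1498 CPM, striatum samples from 1307 through 1420 to 1533 CPM, and PFC samples from 1244 through 1321 to 1432 CPM. The coefficient of variation between mice was 4.24% in midbrain, 4.78% in striatum and 4.69% in PFC. The 3 ranges overlapped over most of their length. The largest fitted difference was a log2 fold change of 0.09 ± 0.03 for striatum over PFC, and Ptgs1 was higher in striatum than in midbrain in 10 of 12 mice by 0.07 ± 0.06 on the log2 scale (mean ± SD within mice).

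Ptgs2, which encodes the inducible cyclooxygenase COX-2, averaged 2.77 CPM per kb of exon against 354 CPM per kb for Ptgs1. Among the members its spread within regions was the widest on the log2 scale. In midbrain, though, its coefficient of variation (42.1%) was under those of Ptger3 (45.8%) and Ptger4 (46.9%). Ptgs2 lies on the plus strand of chromosome 1 (GRCm38, 150100031 to 150108227). Midbrain samples ran from 4.11 through a median of 19.9 to 26.5 CPM. Striatum samples ran from 0.409 through 9.29 to 15.0 CPM and PFC samples from 2.69 through 8.87 to 23.4 CPM. The midbrain reached the highest values, with 6 samples above 20 CPM, but the ranges overlapped between all regions. Mean Ptgs2 was 18.5 ± 7.77 CPM in midbrain, 9.26 ± 4.94 CPM in striatum and 10.1 ± 5.50 CPM in PFC (each ± SD).

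The fitted log2 fold change of Ptgs2 was -0.87 ± 0.36 for PFC over midbrain and -1.001 ± 0.36 for striatum over midbrain (each ± SE). It was lower in PFC than in midbrain in 10 of 11 mice and lower in striatum than in midbrain in 10 of 12. The lowest value, 0.409 CPM, came from 19 counts in the striatum of mouse 8, whose midbrain held 26.5 CPM, the highest of all 35 samples. Without mouse 8 the striatum over midbrain value was -0.81. The SD of Ptgs2 within regions was 1.07 on the log2 scale, against 0.58 for Ptger3, 0.52 for Ptger4, 0.14 for Hpgds, 0.13 for Tbxas1 and 0.07 for Ptgs1.

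Hpgds encodes the haematopoietic PGD2 synthase, the PGD2-forming enzyme typical of microglia. Its midbrain samples ran from 262 through a median of 351 to 441 CPM, its striatum samples from 333 through 370 to 399 CPM, and its PFC samples from 347 through 398 to 460 CPM. The median was highest in PFC, with overlap between all groups. The log2 fold change for PFC over midbrain was 0.20 ± 0.06 (SE), and 9 of 11 mice had more Hpgds in PFC. Striatum over midbrain was 0.07 ± 0.06 (SE), higher in striatum in 7 of 12 mice. These differences were 0.34 and 0.18 within mice 1 to 6, and 0.06 and -0.04 within mice 7 to 12.

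Tbxas1 encodes thromboxane A synthase, and its levels were close in all regions. Its midbrain samples ran from 290 through a median of 329 to 370 CPM, its striatum samples from 275 through 307 to 370 CPM, and its PFC samples from 261 through 327 to 402 CPM. All 3 log2 fold changes between regions lay between -0.07 and -0.03, with SE of 0.05. Hpgds lies on the minus and Tbxas1 on the plus strand of chromosome 6 (GRCm38, 65117293 to 65144908 and 38875404 to 39084585). Among the 6 members, the CPM groups of PFC and midbrain were separate for Ptger3 alone. No member had separate groups for striatum and midbrain, as 0.297% of all genes had, or for striatum and PFC, as 0.0188% had.

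Per exon length, Ptgs1 stood far above the other members. Its mean over 35 samples was 354 CPM per kb, followed by Hpgds with 58.1, Tbxas1 with 35.2, Ptgs2 with 2.77, Ptger3 with 2.57 and Ptger4 with 1.62 CPM per kb. The order of the 3 lowest members depended on the region. In midbrain Ptgs2 (4.03 ± 1.70 CPM per kb, SD) and Ptger4 (2.81 ± 1.32) differed by less than 1 SD and both lay above Ptger3 (0.791 ± 0.363). In striatum Ptger3 (2.27 ± 0.668) and Ptgs2 (2.02 ± 1.078) differed by less than 1 SD and Ptger4 (0.958 ± 0.260) was lowest. In PFC Ptger3 (4.84 ± 1.27) led Ptgs2 (2.21 ± 1.2) and Ptger4 (1.03 ± 0.497), and Ptger4 differed from Ptgs2 by less than the SD of Ptgs2.

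**Figure D3:**
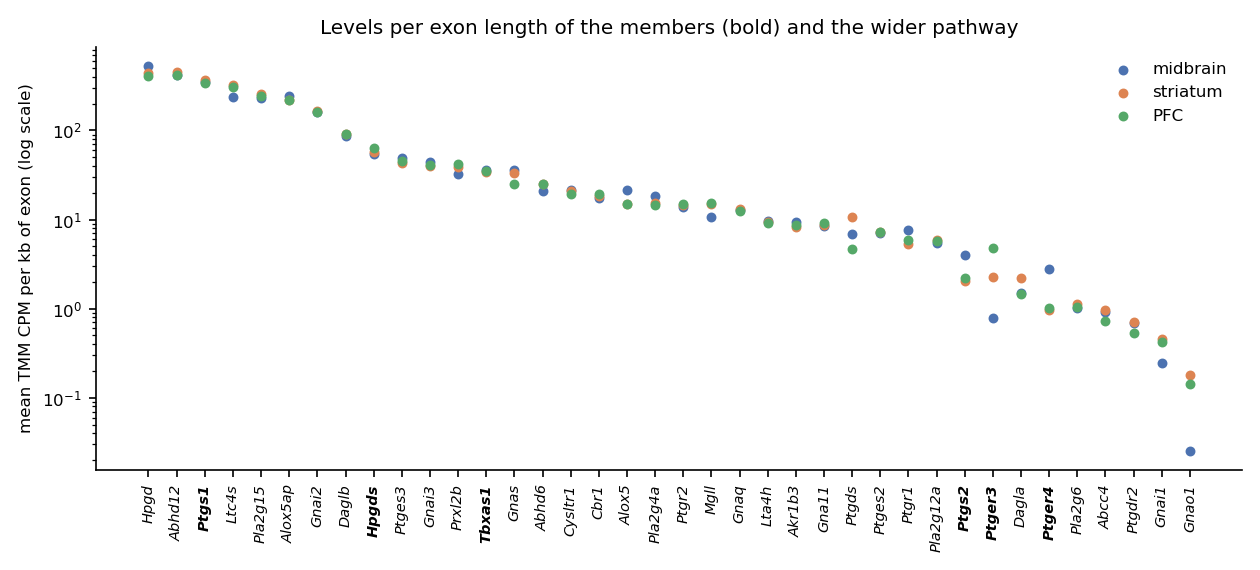
Mean TMM-normalised CPM per kb of exon (y axis, log scale) in midbrain, striatum and PFC for the 6 members (bold) and the listed pathway genes averaging 1 CPM or more (Ptger1 not shown), ordered by their mean over 35 samples (x axis). Ptgs1 follows Hpgd and Abhd12 at 354 CPM per kb, and the 3 points of Ptger3 are spread from 0.791 to 4.84 CPM per kb.

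Across samples the members did not move as 1 group once the regions were centred. After region means were removed from log2 CPM, Ptger3 and Ptger4 had a Pearson r of 0.13 over 35 samples (with region means kept, -0.62), and the highest r among the 15 pairs of members was 0.56, between Ptger4 and Ptgs2. Hpgds followed with 0.39 with Ptger4 and 0.32 with Ptgs2. These samples share mice, the genes of a pair are read from the same library, and the coefficients are descriptions.

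Markers of other cells moved with some of the members. The sum over the neuron markers, 10 of 13 listed and in the table, followed the same regional order as Ptger3, with means of 6.13, 10.3 and 15.8 CPM in midbrain, striatum and PFC (ranges 3.42 to 8.55, 6.42 to 14.6 and 10.3 to 28.3), and its r with Ptger3 was 0.79 over 35 samples and 0.26 after region means were removed. Among these markers Slc17a7, the transporter of excitatory cortical neurons, averaged 0.0455, 0.439 and 1.93 CPM. It was at 0 in 5 samples and at or under 3 counts in 11. Mean Rbfox3, Snap25 and Stmn2 also rose in this order, while Syt1, Gad1, Gad2, Nefl, Tubb3 and Th did not. Th, of dopamine neurons, was at 0 in 25 samples. With an index of other brain cell markers as a covariate, an alternative added after the data were seen, the log2 fold change of Ptger3 for PFC over midbrain was 2.61. The index is a mean over neuron, astrocyte, oligodendrocyte, vascular and meningeal or choroid markers, so it does not follow the neuron markers alone. Oligodendrocyte sums, for example, averaged 398.5, 477 and 335 CPM in midbrain, striatum and PFC. The part of neurons in the Ptger3 values was not tested. The sum over the astrocyte markers had r of 0.61 with Ptger3 and -0.61 with Ptger4, and 0.01 with each of them after region means were removed. In midbrain this sum averaged 238 CPM, of which Slc1a3 alone averaged 171 CPM. The microglia marker sum had r of -0.72 with Ptger4 (-0.37 after region means were removed) and -0.56 with Ptgs2 (-0.38). In sorted pools, fewer cells with a transcript and less transcript per cell cannot be told apart.

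The genes whose log2 CPM followed Ptger3 most closely over the 35 samples, among 8606 other genes averaging 8 CPM or more, were Upk1b (r = 0.86), Bank1 (0.85), Fcrls (0.85), Abca1 (0.83) and Slc39a12 (0.82). Fcrls, a microglial Fc receptor-like gene, averaged 2864 CPM in midbrain, 3708 in striatum and 4454 in PFC. Those that ran most strongly against it were Anxa5 (r = -0.91), Emp3 (-0.85), Fxyd5 (-0.83), Lpl (-0.83) and Capg (-0.83). Lpl, which encodes lipoprotein lipase, averaged 28.8 CPM in midbrain, 15.9 in striatum and 5.34 in PFC. After region means were removed, the highest coefficients were lower: 0.59 for Abca1, which encodes a cholesterol exporter, then Fcgr2b (0.52), Gpr35 (0.52), Esr1 (0.52) and P2rx1 (0.51), and the lowest were Scfd1 (-0.57), Ilk (-0.53), Gmppa (-0.51), Dhdds (-0.50) and Sgcb (-0.50). Abca1 was in both lists of highest coefficients, which are not independent because they use the same samples. The named genes are the extremes among 8606, and their coefficients are descriptions with no test.

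Male and female microglia were compared next, a contrast that played no part in the choice of the genes. No member had a sex effect in edgeR's quasi-likelihood test at an adjusted p under 0.05 (0 of 6, where 0.339% of all genes did). At an unadjusted p under 0.05 it was 1 of 6 in edgeR, and 2 of 6 in DESeq2, which also called 0 after adjustment. In edgeR the smallest p among the members was that of Tbxas1, with a log2 fold change of -0.12 ± 0.04 (SE) for male over female (edgeR adjusted p = 0.367, unadjusted p = 0.0104). Mean Tbxas1 was 307 CPM in males and 333 CPM in females. With counts summed per mouse its p was 0.0699.

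Ptger3 averaged 13.9 CPM in males and 15.3 CPM in females, with a log2 fold change of -0.07 ± 0.17 for male over female (SE, edgeR adjusted p = 0.982). For Ptger4 it was 0.01 ± 0.18, for Ptgs2 0.04 ± 0.29, for Ptgs1 0.04 ± 0.03 and for Hpgds -0.01 ± 0.05 (each ± SE). These errors treat samples of the same mouse as separate. With counts summed per mouse, the log2 fold changes were -0.19 for Ptger3, -0.11 for Ptger4 and -0.05 for Ptgs2 (edgeR unadjusted p = 0.321, 0.587 and 0.838). For the receptors and Ptgs2, small sex differences were not detectable with 12 mice.

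Within single regions no member passed the test for sex either. It was 0 of 6 in midbrain (0.0377% of all genes), 0 of 6 in striatum (0.033%) and 0 of 6 in PFC (0.0659%), and at an unadjusted p under 0.05 it was 0, 1 and 0 in both edgeR and DESeq2. Tbxas1 was that 1 in striatum, where males had 275 to 314 CPM with a median of 296 and females 300.3 to 370 CPM with a median of 327, a log2 fold change of -0.16 ± 0.07 (SE, edgeR unadjusted p = 0.0365, adjusted p = 1). In midbrain, females had 14.03 to 43.1 CPM of Ptger4 with a median of 17.1, and males 9.10 to 22.4 CPM with a median of 16.8. The log2 fold change was -0.45 ± 0.29 (SE), and the highest female value was that of mouse 6. The region by sex interaction was 0 of 6 in edgeR and in DESeq2, also unadjusted, and 0% of all genes passed it. The smallest unadjusted edgeR p among the members was 0.16, for Ptger4.

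The wider pathway was followed in 53 other genes of eicosanoid synthesis, breakdown and signalling, of which 45 were in the table. Of these, 12 had a region effect in edgeR at an adjusted p under 0.05, against 8.89% of all genes. This list was put together with earlier results of these data known, and all genes include many of low expression. Nothing is therefore read from the difference between the shares. The calls between pairs of regions also needed a post hoc p under 0.05 and a fold change over 1.2. In PFC 5 genes were higher and 5 lower than in midbrain (2.75% and 3.24% of all genes), and in striatum 5 were higher and 2 lower than in midbrain (3.5% and 2.98%). Against PFC, 2 were higher and 0 lower in striatum (2.31% and 0.833%). With mouse as a block 4 were higher, and the share of all genes in that setting is not given here. At an unadjusted p under 0.05 alone, the genes lower in striatum than in PFC were also 0, in edgeR and in DESeq2. The median log2 fold change of the 45 genes was -0.01 for PFC over midbrain and 0.06 for striatum over midbrain, beside 0.01 and 0.01 over all genes.

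**Figure D4:**
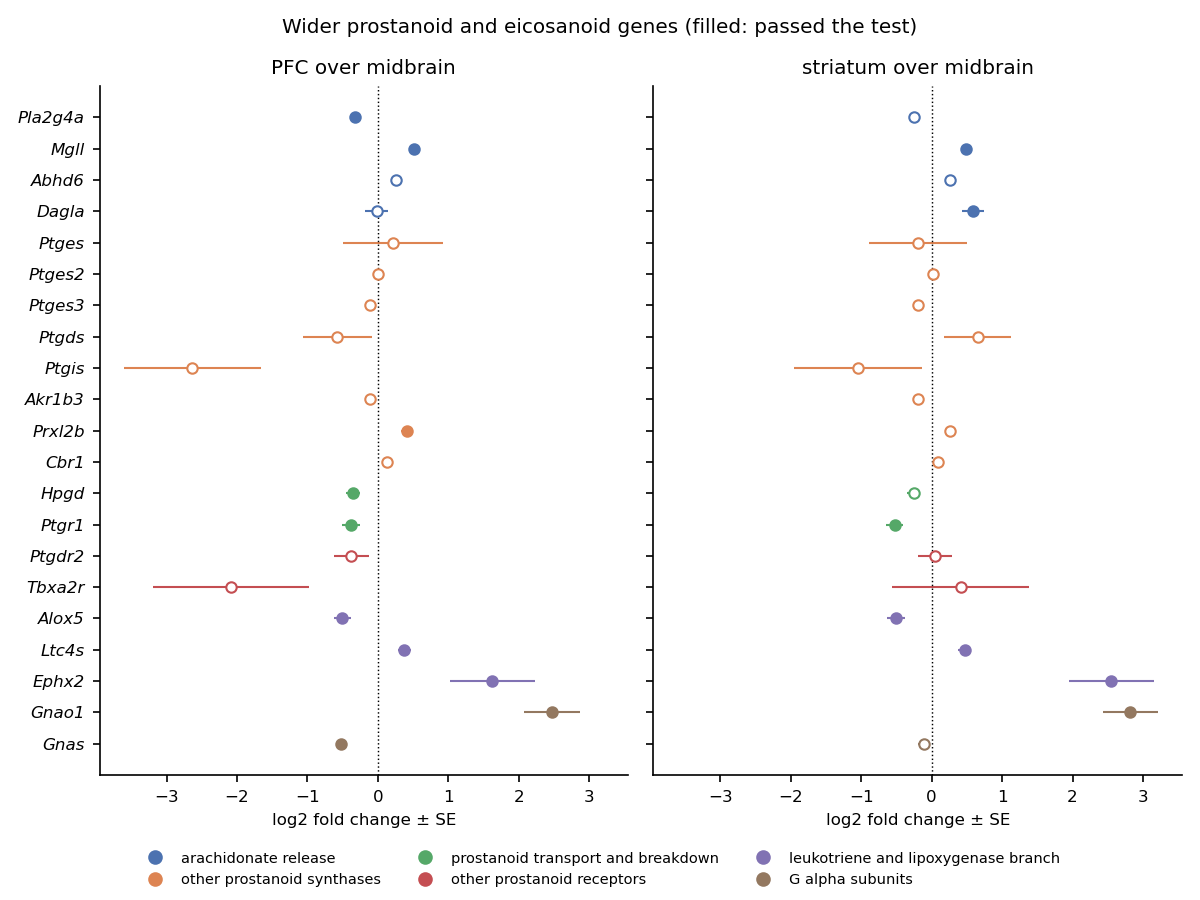
Fitted log2 fold changes ± SE (x axis) for PFC over midbrain (left) and striatum over midbrain (right) of the listed pathway genes with a region effect and of the other prostanoid receptors and synthases described here (y axis), coloured by list. Filled points passed the region effect, a post hoc p under 0.05 and a fold change over 1.2; Mgll and Ltc4s were higher and Alox5 and Ptgr1 lower than in midbrain in both panels.

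Of the 12 measured genes listed under arachidonic acid release, 4 had a region effect. Among these 4, Dagla forms 2-AG and does not itself free arachidonic acid. Mgll, the monoacylglycerol lipase that frees arachidonic acid from the endocannabinoid 2-AG, was 47.2 to 62.6 CPM in midbrain, 60.2 to 86.1 CPM in striatum and 63.98 to 95.5 CPM in PFC. It rose by 0.52 ± 0.07 (log2, SE) in PFC and 0.48 ± 0.06 in striatum over midbrain (edgeR adjusted p of the region effect 2.79e-07), in 11 of 11 and 12 of 12 mice. Among striatum and PFC samples, only the lowest of the striatum lay within the midbrain range. Dagla, a synthase of 2-AG, was higher in striatum, at a mean of 12.9 CPM against 8.58 CPM in midbrain and 8.49 CPM in PFC (log2 fold changes 0.58 ± 0.16 and 0.60 ± 0.16, SE, adjusted p of the region effect 0.00927). The Dagla call was lost with the marker index as a covariate, at 0.44 over midbrain and 0.496 over PFC (adjusted p = 0.082), and in mice 7 to 12 alone, at 0.55 and 0.36 (adjusted p = 0.123).

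Pla2g4a, the cytosolic phospholipase A2 that acts ahead of the cyclooxygenases, went the other way. It averaged 116 CPM in midbrain and 92.4 CPM in PFC, a log2 fold change of -0.32 ± 0.08 (SE, edgeR adjusted p of the region effect 0.00717). It was lower in PFC in 10 of 11 mice. The Pla2g4a call was lost in mice 1 to 6 alone, at -0.25 and short of the fold change. It was also lost in mice 7 to 12 alone, at -0.39 (edgeR adjusted p = 0.08985). Abhd6, another 2-AG hydrolase, had a region effect (adjusted p = 0.02) with 49.9, 59.7 and 59.9 CPM in midbrain, striatum and PFC, and missed the fold change of the pairs.

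Of the 8 other prostanoid synthases, 1 had a region effect. Prxl2b, the prostamide and PGF2alpha synthase, averaged 33.1 CPM in midbrain, 39.6 CPM in striatum and 43.7 CPM in PFC and rose by 0.41 ± 0.08 (log2, SE) in PFC over midbrain (edgeR adjusted p of the region effect 0.00163). The PGE2 synthases did not pass the test. Ptges3 averaged 109, 95.3 and 101 CPM in midbrain, striatum and PFC (adjusted p = 0.0571), Ptges2 36.1, 36.7 and 36.2 CPM (adjusted p = 0.973), and the inducible Ptges 0.208, 0.187 and 0.249 CPM (adjusted p = 0.94), with some samples at 0. Ptgds, the lipocalin-type PGD2 synthase of glia and meninges, averaged 11.3, 17.8 and 7.62 CPM and spread widely within midbrain, from 0.792 to 31.5 CPM (adjusted p = 0.257). The reductases Akr1b3 and Cbr1, which can form PGF2alpha, had means of 69.1 to 79.5 and 44.4 to 48.8 CPM (adjusted p = 0.134 and 0.467), and the prostacyclin synthase Ptgis stayed at or under 11 counts in every sample (adjusted p = 0.184).

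Of 4 measured genes of prostaglandin transport and breakdown, 2 had a region effect, both lower in PFC than in midbrain, and Ptgr1 also lower in striatum. Hpgd, the 15-hydroxyprostaglandin dehydrogenase that inactivates PGE2, had the highest level per exon length of all 51 measured genes, 461 CPM per kb. It averaged 885 CPM in midbrain, 741 CPM in striatum and 694 CPM in PFC and fell by 0.35 on the log2 scale in PFC over midbrain (SE 0.10, edgeR adjusted p of the region effect 0.0343), in 11 of 11 mice. This call was lost in 8 of 21 alternatives, among them leaving out mouse 2, 4, 7, 9, 10 or 12, with the log2 fold change between -0.39 and -0.32 for all left-out mice. Ptgr1, the prostaglandin reductase that acts after Hpgd, averaged 17.5, 12.2 and 13.5 CPM, with log2 fold changes of -0.53 ± 0.12 for striatum and -0.38 ± 0.13 for PFC over midbrain (SE, adjusted p of the region effect 0.00862).

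None of the 3 other prostanoid receptors in the table had a region effect. Ptgdr2, the PGD2 receptor DP2, averaged 1.84, 1.88 and 1.41 CPM (edgeR adjusted p = 0.5), with 1031 exon bases that overlap Ccdc86 on the other strand. The thromboxane receptor Tbxa2r averaged 0.114, 0.143 and 0.0316 CPM (adjusted p = 0.334), while the synthase Tbxas1 exceeded 261 CPM in every sample.

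Among 8 G alpha subunits, through which these receptors act, 2 had a region effect. Gnas, which encodes Gs alpha, the partner of EP4, was 355 to 462 CPM in midbrain, 300.5 to 430 CPM in striatum and 221 to 367 CPM in PFC. Its log2 fold change for PFC over midbrain was -0.52 ± 0.08 (SE, edgeR adjusted p of the region effect 4e-05) and it was lower in PFC in 11 of 11 mice against both regions, with striatum over PFC at 0.41 ± 0.08. Exons of other transcripts at this locus lie antisense to Gnas. Gnai2, the most abundant Gi subunit and a partner of EP3, averaged 609, 628 and 604 CPM (adjusted p = 0.759), and Gnai3 144, 131 and 132 CPM (adjusted p = 0.189). Gnao1, the Go subunit abundant in neurons, was low, at means of 0.283, 1.99 and 1.58 CPM, and rose by 2.82 ± 0.39 in striatum and 2.47 ± 0.39 in PFC over midbrain (log2, SE, adjusted p of the region effect 1.04e-05). In the same test 4 of 10 neuron markers were higher in PFC than in midbrain (2.75% of all genes). In striatum 4 were higher and 1 lower (3.5% and 2.98%). The part of neurons in the Gnao1 values was not tested. With the marker index as a covariate, the Gnao1 values were 2.22 in striatum and 2.35 in PFC. In mice 1 to 6 alone they were 2.62 and 1.42, and the call was lost (edgeR adjusted p = 0.061).

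The leukotriene and lipoxygenase branch competes for the same arachidonic acid. Of the 10 measured genes listed under it, 3 had a region effect and did not move together. Among these 3, Ephx2 is not itself a leukotriene or lipoxygenase enzyme. Alox5, the 5-lipoxygenase, averaged 87.2 CPM in midbrain, 61.4 CPM in striatum and 61.5 CPM in PFC. Its log2 fold changes were -0.51 ± 0.12 and -0.50 ± 0.13 (SE, edgeR adjusted p of the region effect 0.00432). It was lower than in midbrain in 12 of 12 and 11 of 11 mice. The Alox5 calls were lost in mice 1 to 6 alone (-0.47 and -0.54, adjusted p = 0.0529) and in mice 7 to 12 alone (-0.54 and -0.51, adjusted p = 0.0817). Ltc4s, the leukotriene C4 synthase, rose from 239 CPM in midbrain to 332 CPM in striatum and 311 CPM in PFC (log2 0.47 ± 0.09 and 0.38 ± 0.09, adjusted p 0.0011), in 12 of 12 and 11 of 11 mice. Ephx2, the soluble epoxide hydrolase, was low, at means of 0.263, 1.56 and 0.817 CPM with samples at 0 in each region, and rose by 2.55 ± 0.61 in striatum and 1.63 ± 0.61 in PFC over midbrain (log2, SE, edgeR adjusted p 0.0139). The Ephx2 call was lost without mouse 10 (2.38 and 1.57, adjusted p = 0.0531), in mice 1 to 6 alone (1.90 and 0.35, adjusted p = 0.46) and with the marker index as a covariate (1.29 and 1.40, adjusted p = 0.13). In the same test 3 of 8 astrocyte markers were higher in striatum and in PFC than in midbrain (3.5% and 2.75% of all genes). Mean Gfap was 2.28, 1.76 and 1.42 CPM and S100b 2.18, 2.23 and 1.99 CPM in midbrain, striatum and PFC. The part of astrocytes in the Ephx2 values was not tested. The 5-lipoxygenase activating protein Alox5ap averaged 343, 314 and 312 CPM (adjusted p = 0.49).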

How the data were processed

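RNA of tdTomato-positive microglia was measured in 35 samples, in 6 groups by region and sex from the labels, with 12 mice numbered in the titles. The authors deposited raw read counts per Ensembl gene, after trimming (Trimmomatic), alignment to GRCm38 (HISAT2) and removal of genes with low expression. The libraries were full-length, with no molecular identifiers, and the counter, annotation release and strand setting are not given in the sources used here. Total counts ran from 37680501 to 54131421, and floors of 3 counts cover counting error only.

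Symbols, positions and exon lengths came from GENCODE M21. CPM and log2 CPM (prior count 2) used TMM factors of edgeR 4.0.16 in R 4.3.3. All 21236 genes were fitted with edgeR's quasi-likelihood F-test on region and sex, after the study's main effects model, and with a mean per region and sex for sex within regions and the interaction. P-values were adjusted by Benjamini-Hochberg over all genes. P-values of samples from 1 mouse treat them as separate unless mouse was a block. Alternatives were DESeq2 1.42.0, other scalings and filters, a mouse block, mice 1 to 6 or 7 to 12 alone, leaving out each mouse, and a marker covariate. Fits were tested on simulated data first. Python 3.11.15 and matplotlib 3.10.9 drew the plots.

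The members, lists and tests were chosen with earlier results of these data known. Named genes were the members, each listed gene with a region effect, all other prostanoid receptors and synthases, and the 5 highest and 5 lowest coefficients with Ptger3. Of these, the values of Ptger1 are not reported here. Genes outside this rule (Gnai2, Gnai3, Alox5ap, Tmem119 and the single neuron and astrocyte markers) were named after their values were seen. The mouse number pairs samples because they come from the same animal: over 8623 genes the mean correlation of deviations was 0.347 in 34 same-mouse pairs and -0.0675 in 170 others. Upstream sequences are from RefSeq (GRCm38.p6).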

Additional observations from a re-analysis of the deposited data

Results flagged for a closer look

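Of 36 groups of 5 or 6 samples (6 members in 6 groups of region and sex), 3 had a highest sample far from the rest by the ratio of its gap to the range. About 1 in 20 groups is marked in this way by chance.

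Ptger4 in female midbrain was 43.1 CPM in mouse 6 and 14.03 to 21.7 CPM in the other 5 samples (gap over range 0.736). Ptger4 in male PFC was 15.3 CPM in mouse 11 and 4.87 to 7.74 CPM in the other samples of its group (0.725). That PFC sample also had the highest neuron (28.3 CPM) and oligodendrocyte (525.6 CPM) marker sums and the highest Ptgs2 (23.4 CPM) of its region, and the part of these cells was not tested. Ptgs1 in male midbrain was 1498 CPM in mouse 11 and 1354 to 1387 CPM in the others (0.768).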

How the results depend on the processing

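Both receptors kept their directions against midbrain in every alternative run: Ptger3 for PFC over midbrain was 2.61 (mice 1 to 6), 2.67 (mice 7 to 12) and 2.51 to 2.74 when each mouse was left out, and Ptger4 -1.59, -1.35 and -1.61 to -1.24. With the marker covariate, Ptger4 for striatum over midbrain was -1.80 and Ptgs2 -1.48. In these same subsets of mice Hpgds was 0.34 and 0.06 for PFC over midbrain, and 0.18 and -0.04 for striatum over midbrain.

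The 12 pathway genes with a region effect became 4 in mice 1 to 6 alone. In the same mice, 3 genes were called for PFC against midbrain and 3 for striatum against midbrain, with fewer samples. The 2 genes called for striatum against PFC became 4 with mouse as a replicate block, 0 in mice 7 to 12 alone, 1 with the marker covariate and 1 with an adjusted p for the pair, and the cause was not tested apart from the smaller number of samples with 6 mice. The block changed no other count by over 1.5 times (16 genes with a region effect). Leaving out each mouse gave 10 to 13 genes with a region effect. The share of all genes called in these alternatives is not given here. Whether the changed counts are particular to the pathway therefore cannot be told. Of the 19 single calls between regions, none changed sign and 364 of 397 repeats kept the call. Hpgd was lost most often, Ephx2 also without mouse 10, and Dagla, Ephx2 and Hpgd with the marker covariate. In mice 1 to 6 alone, PFC over midbrain was 1.42 for Gnao1, 0.35 for Ephx2 and -0.23 for Ptgr1, all lost there. Alox5 and Pla2g4a were lost in each subset of mice, Prxl2b and Ltc4s in mice 1 to 6, and Gnas in mice 7 to 12. No alternative called a member for sex or the interaction. Scalings moved the median gene by at most 0.03 (log2). Depth limits the genes under about 1 CPM.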
